A study of Mus musculus with 16 samples.

Results

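Mbp, Pmp22 and Prnp, 3 genes of Schwann cells and myelin, were followed across muscle samples of SOD1-G93A and non-transgenic mice as a gauge of how much nerve each sample held. The members were every probe set of the table whose only annotated gene symbol was one of these names. They came to 9 of 7729 probe sets, 6 for Mbp, 1 for Pmp22 and 2 for Prnp, and to 3 of the 4929 genes with such a symbol. The arrays measured total RNA of whole gastrocnemius, a calf muscle, and of whole triceps, a forelimb muscle. Female C57BL/6 mice, 7 weeks old, had been used throughout, an age at which the series calls the transgenic animals presymptomatic. One genotype carried human SOD1 (superoxide dismutase 1) with the G93A substitution, a model of amyotrophic lateral sclerosis, and the other was non-transgenic (NTg). Each of the 4 groups, NTg gastrocnemius, SOD1-G93A gastrocnemius, NTg triceps and SOD1-G93A triceps, held 4 arrays. Arrays of both muscles with the same genotype and replicate number were taken as the same mouse, which gives 4 mice per genotype. The labels do not say so outright, and every count or test by mouse rests on it. The labels name neither the line nor the promoter of the transgene.

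Motor axons enter a muscle in nerve branches whose Schwann cells wrap them in myelin, a stack of membrane held together by a small set of abundant proteins. Myelin basic protein (Mbp) sits on the cytoplasmic face of that membrane and compacts it, and Pmp22 is a membrane protein of compact peripheral myelin whose gene dosage underlies inherited neuropathies. The cellular prion protein (Prnp) is a surface glycoprotein made by neurons, Schwann cells, muscle fibres and many other cells, and its loss in mice leads to a late demyelinating neuropathy. Mbp is the most restricted of these to myelin-forming cells, although its locus also gives Golli transcripts outside them, and Pmp22 is also made at lower levels by fibroblasts and other cells. In a bulk tissue sample, fewer Schwann cells and less RNA of a gene per Schwann cell cannot be told apart.

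Values are log2 signals, so a difference of 1 is a doubling, and levels are compared only within a probe set. A probe set was tested where its mean over all 16 arrays was above the 40th percentile of the table (6.75). That filter passed 4637 probe sets in all. Of the members, 3 of 6 probe sets of Mbp, the probe set of Pmp22 and both of Prnp passed. Array medians lay between 7.10 and 7.26. In 3 triceps arrays, NTg replicates 1 and 2 and SOD1-G93A replicate 2, the muscle creatine kinase gene Ckm was at 12.76 to 13.02, against 13.84 to 14.51 in the other triceps arrays.

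**Figure D1:**
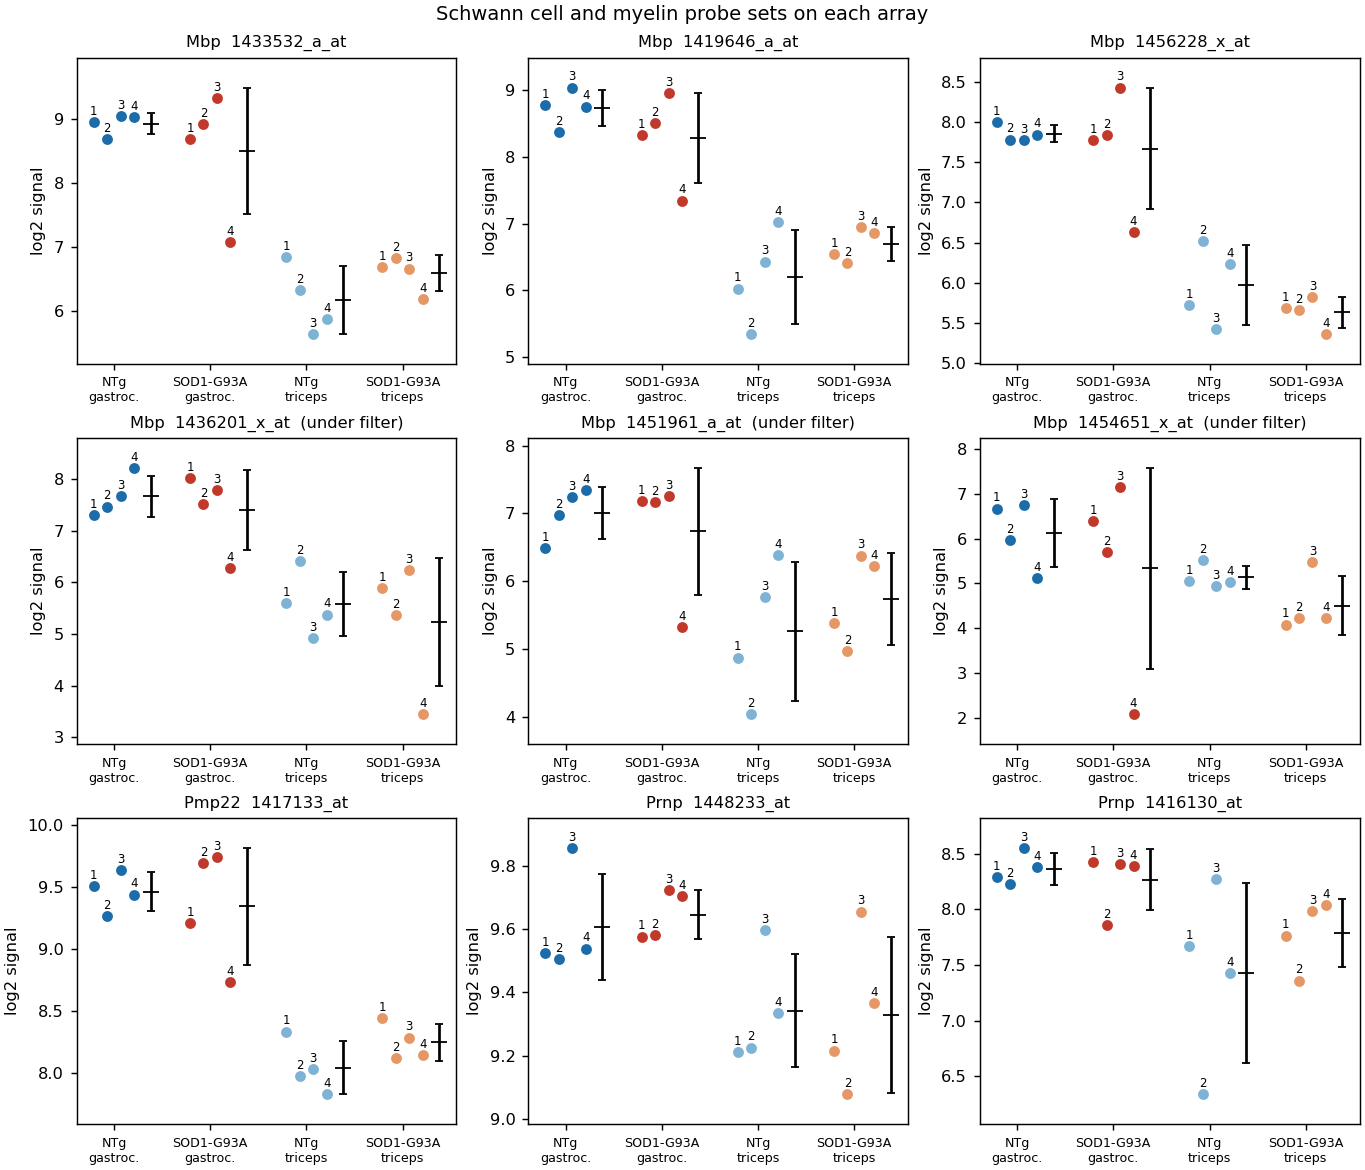
Log2 signal of the 9 member probe sets on each array (points, numbered by replicate), in 4 groups of 4 arrays, with the mean and SD of each group as a bar beside its points. The 3 probe sets titled as under filter were too dim to be tested. All gastrocnemius points sit above all triceps points for the 3 tested Mbp probe sets and for Pmp22, and overlap with them in the other panels. SOD1-G93A gastrocnemius replicate 4 lies lowest among the gastrocnemius arrays in all 7 panels of Mbp and Pmp22.

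Both myelin genes were higher in gastrocnemius than in triceps. Mbp was 5.07-fold higher in gastrocnemius by its brightest probe set and Pmp22 was 2.39-fold higher. The 3 tested Mbp probe sets gave 3.89-fold to 5.07-fold, and their triceps means lay under the filter level. All 8 gastrocnemius arrays lay above all 8 triceps arrays for 3 of 6 Mbp probe sets, the brightest among them, and for Pmp22. The same held for 63 of all 7729 probe sets (0.815%). Prnp was higher in gastrocnemius in 8 of 8 mice, as were 321 of all 7729 probe sets (4.15%). Its small difference did not pass limma's test with the arrays as separate samples (adjusted p = 0.0649 and 0.0961) but passed with the mouse as a random block (0.0251 and 0.0424). Without the 3 triceps arrays low in Ckm it did not pass (limma's adjusted p = 0.168 and 0.399). Between genotypes no member passed the test in either muscle, and 1 transgenic gastrocnemius sample stood far below its group in Mbp.

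The brightest probe set of Mbp was 1433532_a_at. In NTg gastrocnemius it read 8.96, 8.69, 9.05 and 9.03 in replicates 1 to 4, and in SOD1-G93A gastrocnemius 8.69, 8.92, 9.33 and 7.07. In triceps it read 6.84, 6.32, 5.63 and 5.87 in NTg mice and 6.69, 6.83, 6.66 and 6.18 in SOD1-G93A mice. The muscles did not overlap: the lowest gastrocnemius array, SOD1-G93A replicate 4, was still above the highest triceps array. The group means were 8.93 ± 0.16 in NTg gastrocnemius, 8.50 ± 0.99 in SOD1-G93A gastrocnemius, 6.59 ± 0.28 in SOD1-G93A triceps and 6.16 ± 0.53 in NTg triceps (SD, n = 4). In that order, the neighbours within a muscle differed by less than the larger of their SDs but by more than the smaller. The step between the muscles exceeded both SDs beside it.

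limma put the difference between the muscles at 2.34 (SE 0.26, 95% interval 1.80 to 2.88; adjusted p = 1.35e-05), and 171 of 4637 probe sets (3.69%) passed this comparison, 98 of them (2.11%) higher in gastrocnemius. The tested probe sets of Mbp and that of Pmp22 were among the latter. The triceps means of the 3 tested Mbp probe sets (6.38, 6.45 and 5.80) lay under the filter level, so these probe sets passed the filter through gastrocnemius, and their folds rest partly on dim signals. In a fit of all 7729 probe sets without the filter, which called 169 (2.19%), of which 97 (1.26%) were higher in gastrocnemius, 5 of 6 probe sets of Mbp and that of Pmp22 were called higher. For the Mbp probe set 1419646_a_at the difference was 2.06 (SE 0.23), 4.17-fold, and for 1456228_x_at it was 1.96 (SE 0.21), 3.89-fold, with limma's adjusted p at 2.01e-05 and 1.32e-05. The 3 probe sets gave folds between 3.89 and 5.07 for the gene.

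The other probe sets of Mbp were dim, with means over all arrays of 6.47 (1436201_x_at), 6.18 (1451961_a_at) and 5.28 (1454651_x_at). In the fit without the filter limma gave differences of 2.12 (SE 0.35, adjusted p = 0.00152) for 1436201_x_at, 1.37 (SE 0.35, adjusted p = 0.047) for 1451961_a_at and 0.91 (SE 0.54, adjusted p = 0.338) for 1454651_x_at. All 6 probe sets of Mbp were therefore higher on average in gastrocnemius, and the size of the difference shrank in the dimmest. Their names give part of their makeup: a suffix of a_at marks probes common to several transcripts of a gene, and x_at marks probes that can also match other sequences.

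Pmp22 had the same pattern at a smaller scale. Its probe set, 1417133_at, read 9.51, 9.27, 9.64 and 9.44 in NTg gastrocnemius and 9.21, 9.70, 9.74 and 8.74 in SOD1-G93A gastrocnemius. In triceps it read 8.34, 7.98, 8.04 and 7.83 in NTg mice and 8.45, 8.12, 8.29 and 8.15 in SOD1-G93A mice. As with Mbp, no triceps array reached the lowest gastrocnemius array, which again was SOD1-G93A replicate 4. The means were 9.46 ± 0.16, 9.35 ± 0.47, 8.25 ± 0.15 and 8.05 ± 0.21 in NTg gastrocnemius, SOD1-G93A gastrocnemius, SOD1-G93A triceps and NTg triceps (SD, n = 4), the same order of groups as for Mbp. limma's difference between the muscles was 1.26 (SE 0.13, 95% interval 0.98 to 1.54; adjusted p = 1.05e-05).

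Prnp differed less between the muscles. Its brighter probe set, 1448233_at, read 9.52, 9.50, 9.86 and 9.54 in NTg gastrocnemius and 9.58, 9.58, 9.73 and 9.70 in SOD1-G93A gastrocnemius. In triceps it read 9.21, 9.23, 9.60 and 9.33 in NTg mice and 9.22, 9.08, 9.66 and 9.37 in SOD1-G93A mice. Replicate 3 of each genotype was the highest triceps array and overlapped with gastrocnemius. The means were 9.65 ± 0.08 and 9.61 ± 0.17 in SOD1-G93A and NTg gastrocnemius and 9.34 ± 0.18 and 9.33 ± 0.25 in NTg and SOD1-G93A triceps (SD, n = 4). Within a muscle the genotypes differed by less than either SD. The muscles differed by 0.29 (SE 0.09, 95% interval 0.09 to 0.49), 1.22-fold, at limma's adjusted p = 0.0961. That difference was larger than each of these SDs.

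The dimmer Prnp probe set, 1416130_at, ranged from 7.85 to 8.55 in gastrocnemius and from 6.34 to 8.27 in triceps, with the lowest value in NTg triceps replicate 2. Its muscle difference was 0.71 (SE 0.20), 1.63-fold, with limma's adjusted p = 0.0649. With the mouse as a random block, which takes arrays of both muscles with the same genotype and replicate number as the same animal, both Prnp probe sets passed, at adjusted p = 0.0251 for 1416130_at and 0.0424 for 1448233_at, in a fit that called 331 probe sets. Without the 3 triceps arrays low in Ckm the differences were 0.43 (adjusted p = 0.168) and 0.19 (adjusted p = 0.399), so the call for Prnp rests on which arrays and which block are used. Mbp and Pmp22 passed in each of these fits, and without the 3 arrays their differences were 2.59 (1433532_a_at), 1.75 (1419646_a_at), 2.04 (1456228_x_at) and 1.29 (Pmp22).

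**Figure D2:**
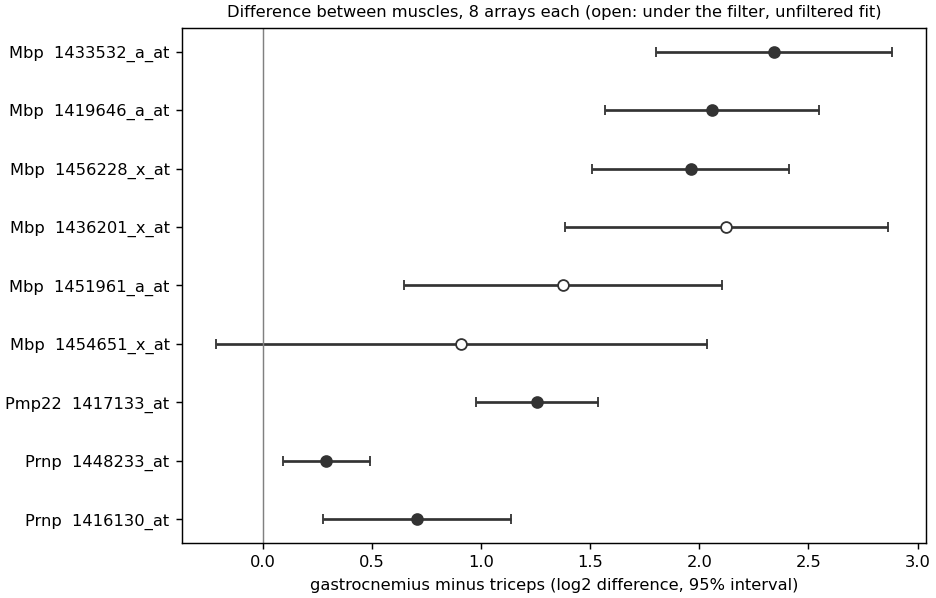
Log2 difference between gastrocnemius and triceps for each member probe set, with its 95% interval from limma, over 8 arrays per muscle. Filled points were tested, and open points were under the filter and come from the fit of all probe sets. The intervals of 5 Mbp probe sets and of Pmp22 lie further above 0 than those of Prnp, and that of the dimmest, Mbp 1454651_x_at, includes 0.

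Taken mouse by mouse, gastrocnemius was above triceps in 8 of 8 mice for 4 of 6 probe sets of Mbp, for Pmp22 and for both of Prnp. Over all 7729 probe sets, 321 (4.15%) were higher in gastrocnemius in every mouse, and 63 (0.815%) had no overlap between the muscles. No overlap was found for the 3 tested probe sets of Mbp and for Pmp22, and for neither probe set of Prnp. For Mbp 1433532_a_at the difference within a mouse was 2.12, 2.37, 3.42 and 3.16 in NTg replicates 1 to 4 and 2.0, 2.09, 2.68 and 0.89 in the SOD1-G93A replicates. By this probe set SOD1-G93A replicate 4 had the smallest step of the 8 mice, and its triceps array (6.18) was not the lowest of that muscle. Other Mbp probe sets differed in this. For 1456228_x_at NTg replicate 2 had the smallest step (1.269, against 1.274 in SOD1-G93A replicate 4). For the dim 1436201_x_at the step of SOD1-G93A replicate 4 was 2.83. Its triceps array was the lowest of that muscle for both, at 5.36 and 3.45. The 2 probe sets that were not higher in every mouse, 1451961_a_at and 1454651_x_at, were lower in gastrocnemius only in SOD1-G93A replicate 4, by differences of -0.90 and -2.16, at dim signals.

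**Figure D3:**
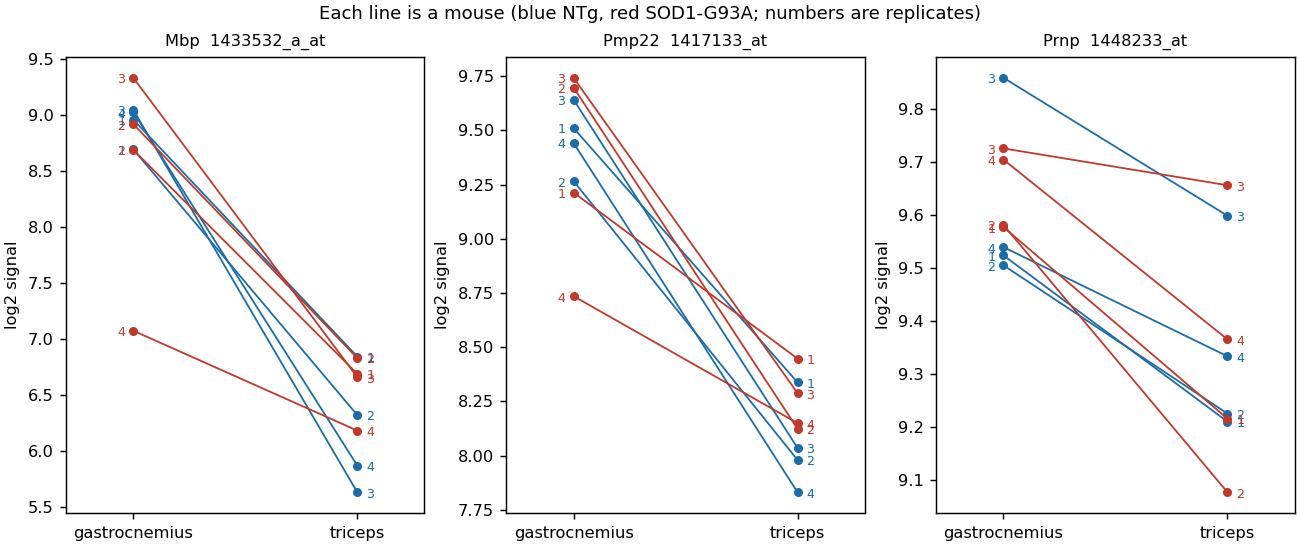
Log2 signal of the brightest probe set of each gene in the gastrocnemius and triceps of each mouse, joined by a line (blue NTg, red SOD1-G93A, numbered by replicate). Every line falls from gastrocnemius to triceps, and the line of SOD1-G93A replicate 4 starts far below the others for Mbp and Pmp22 but not for Prnp.

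The labels name no batch. All 3 triceps arrays low in Ckm had replicate number 1 or 2, while SOD1-G93A triceps replicate 1 (13.84) did not share the low level, and the muscle difference was also taken by replicate number. Within numbers 1 and 2 the muscle difference was 2.15 for Mbp 1433532_a_at, 1.20 for Pmp22 and 0.36 for Prnp 1448233_at, and within numbers 3 and 4 it was 2.54, 1.31 and 0.22. The step in Mbp and Pmp22 was therefore present in each.

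The 250 bases upstream of a start held 3 to 27 CpGs over the 4 starts of Pmp22 and 17 in Prnp. The windows are shown because Pmp22 moved with Mbp between the muscles while Prnp moved less. The set of RefSeq start sites used here (assembly GRCm38.p6) held 2 of the 3 genes, Pmp22 with 4 start sites and Prnp with 1. It had no entry for Mbp, so no window of Mbp is compared. The 250 bases before the start that lies furthest upstream in Pmp22 (chr11:63128732-63128981, plus strand) and before that of Prnp (chr2:131909678-131909927, plus strand) are printed with CpG dinucleotides in capitals.
Pmp22: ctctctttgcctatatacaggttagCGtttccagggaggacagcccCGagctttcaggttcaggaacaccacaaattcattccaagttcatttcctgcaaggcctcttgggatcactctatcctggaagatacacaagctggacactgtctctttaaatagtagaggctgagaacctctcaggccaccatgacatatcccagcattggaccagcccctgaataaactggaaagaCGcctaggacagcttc
Prnp: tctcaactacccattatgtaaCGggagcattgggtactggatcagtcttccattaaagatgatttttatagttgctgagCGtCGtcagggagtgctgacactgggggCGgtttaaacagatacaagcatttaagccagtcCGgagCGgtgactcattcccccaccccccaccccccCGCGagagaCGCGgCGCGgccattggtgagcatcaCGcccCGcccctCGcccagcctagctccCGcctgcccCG
The Pmp22 window held 3 CpGs and 48.8% G or C, while the windows at its other starts held 14, 14 and 27 CpGs. Prnp had 17 CpGs and 58.8% G or C, and the median of 32851 such windows was 6. Pmp22 is known for alternative promoters, of which an upstream one is used by myelinating Schwann cells and another by many tissues. The array gives 1 probe set for the gene and does not tell its starts apart. Searched on both strands, ACAAAG, a core of SOX sites, was in neither window (16.5% of all windows held it), and GTGGGNG, a core of EGR sites, was found 2 times in the Prnp window, 93 and 86 bases before the start, and not in that of Pmp22 (28.1% of all windows). The letters describe these windows only.

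The genotype comparison asked whether the nerve gauge had moved in transgenic muscle at the presymptomatic stage. In gastrocnemius the means of Mbp were lower in SOD1-G93A mice, by a difference of -0.43 (SE 0.36, 95% interval -1.19 to 0.34) for 1433532_a_at, -0.45 (SE 0.33) for 1419646_a_at and -0.18 (SE 0.30) for 1456228_x_at. Pmp22 differed by -0.12 (SE 0.19, 95% interval -0.51 to 0.28). Prnp differed by -0.09 (SE 0.29) for 1416130_at and 0.04 (SE 0.13) for 1448233_at. Each difference was smaller than the SD of its SOD1-G93A group, while those of Mbp exceeded the NTg SDs (0.16, 0.27 and 0.11 in the order above). For every one of these differences limma's adjusted p was 0.999. limma called 0 of 4637 probe sets (0%) in this comparison, and 103 had an unadjusted p under 0.05.

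The lower Mbp means in transgenic gastrocnemius rested largely on 1 array, although 1419646_a_at stayed below 0 without it. Without SOD1-G93A replicate 4 the differences were 0.05, -0.14 and 0.16 for the Mbp probe sets in the order above, and 0.09 for Pmp22. The mean of 1433532_a_at in the 3 remaining arrays was 8.98 ± 0.33 (SD, n = 3) against 8.93 ± 0.16 in NTg mice (n = 4). With 4 mice per group the intervals were wide: that of 1433532_a_at includes a fall by 1.19 and a rise of 0.34 on the log2 scale.

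In triceps, Mbp differed between SOD1-G93A and NTg by 0.42 (SE 0.36, 95% interval -0.34 to 1.19) for 1433532_a_at, 0.49 (SE 0.33) for 1419646_a_at and -0.34 (SE 0.30) for 1456228_x_at, so its probe sets did not share a direction. Pmp22 differed by 0.21 (SE 0.19, 95% interval -0.19 to 0.60), and Prnp by 0.36 (SE 0.29) and -0.01 (SE 0.13) in 1416130_at and 1448233_at. limma's adjusted p was 0.994 to 0.997, and 0 of 4637 probe sets (0%) were called, with 118 under an unadjusted p of 0.05. Averaged over both muscles, with the mouse as a random block, the differences lay between -0.26 (Mbp 1456228_x_at) and 0.13 (Prnp 1416130_at), at adjusted p of 0.997 to 0.998. The averaged comparison called 0 probe sets (0%), with 85 under an unadjusted p of 0.05.

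The test of the difference between the muscles' genotype effects (gastrocnemius minus triceps) gave -0.85 (SE 0.51) for Mbp 1433532_a_at, -0.94 (SE 0.47) for 1419646_a_at, 0.16 (SE 0.43) for 1456228_x_at and -0.32 (SE 0.27) for Pmp22. For Prnp it gave -0.45 (SE 0.41) and 0.05 (SE 0.19) in 1416130_at and 1448233_at. The adjusted p was 0.999 for all 6 probe sets, no genotype effect was thus shown to depend on the muscle, and 0 probe sets of 4637 (0%) were called, with 86 under an unadjusted p of 0.05.

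**Figure D4:**
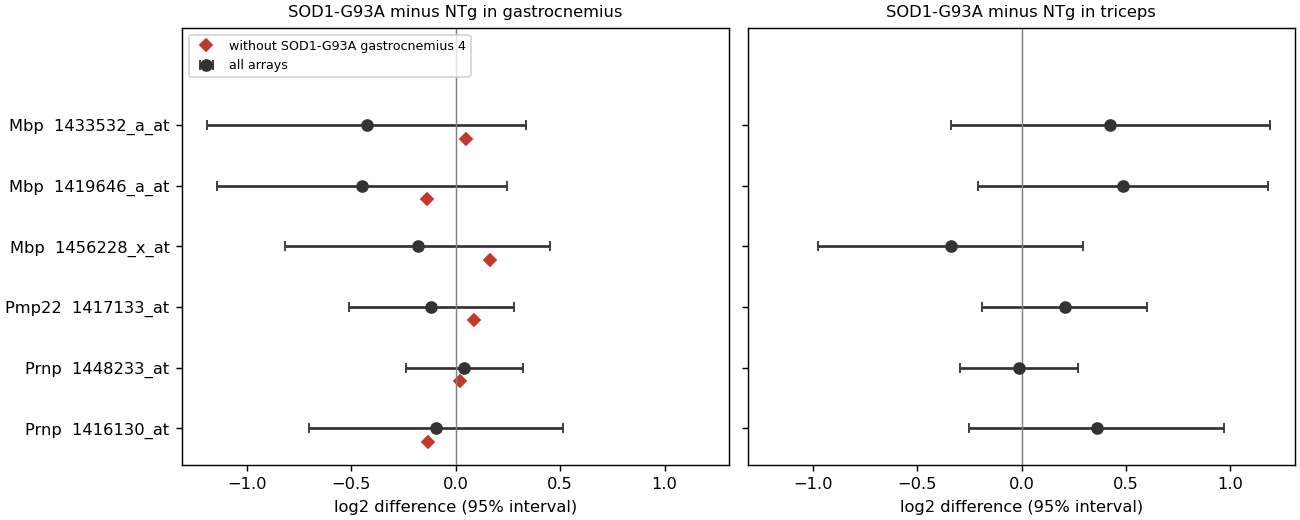
Log2 difference between SOD1-G93A and NTg mice in gastrocnemius (left) and triceps (right) for the 6 tested member probe sets, with the 95% interval from limma (4 arrays per group). Diamonds give the gastrocnemius difference without SOD1-G93A replicate 4. All intervals include 0, and the 3 lower Mbp values move to between -0.14 and 0.16 without that array.

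SOD1-G93A gastrocnemius replicate 4 was examined further because it set the spread of its group. It was the lowest gastrocnemius array for 6 of 6 probe sets of Mbp and for Pmp22, and for neither of Prnp. Mbp 1433532_a_at differed by -1.88 from the mean of the other 7 gastrocnemius arrays (7.07 against 8.95), and among 3034 genes with 1 probe set each only the clock gene Per1 lay further below. Pmp22 differed by -0.77, at place 67 from the lowest, and Prnp by 0.09. The array was lower than all other 7 gastrocnemius arrays for 435 of the 3034 genes (14.3%), and 28 genes lay more than 1 below the mean of the others. The array was placed on a scale where 0 is the mean of the triceps arrays and 1 that of the other gastrocnemius arrays. Its median over 167 other probe sets called between the muscles was 0.978. That lay within the range of the gastrocnemius arrays (0.896 to 1.145) and above all triceps arrays (-0.554 to 0.385). The 167 had been called with this array counted as gastrocnemius, which favours a value near 1. The scale is therefore no independent check of its label.

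Some lists of other cell types also placed that array at an end of its muscle, and others did not. Its mean level over a list was the lowest of the 8 gastrocnemius arrays for fibroblast and matrix genes (8.89), smooth muscle (8.52) and immune cells (5.79), and the highest for muscle fibre genes (13.53). Over the Schwann cell identity list it ranked in place 4 of 8 from the lowest, and over endothelium in place 7. For adipocyte genes it was in place 5, and for the 1 axon and neuron gene in place 3. It was the highest of the 8 for genes of myelin lipid synthesis (6.51) and for the prion protein and its partners (8.418). Some of these ranks rest on small gaps. The next array was at 8.415 for the prion protein and its partners, 6.44 for myelin lipid synthesis, 13.49 for muscle fibre and 8.58 for smooth muscle. The list means include genes under the filter: 3 of 5 immune genes and 2 of 8 genes of myelin lipid synthesis were tested. Among the untested, C1qa and C1qb had SDs of 1.42 and 1.68 over the gastrocnemius arrays. The ranks for these lists therefore rest partly on dim signals. The part of these cell types in the low Mbp value was not tested.

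Across mice, Mbp and Pmp22 varied together in gastrocnemius. Over the 8 mice Pearson's r between their brightest probe sets was 0.922 (exact permutation p = 0.00122, adjusted 0.0109 over 9 relations, two-sided) and Spearman's rho was 0.833 (exact permutation p = 0.0154, adjusted 0.138). Without the 2 mice farthest from the median of Mbp, r was 0.795 over the remaining 6. In triceps r was 0.718 (exact permutation p = 0.0466, adjusted 0.140) with rho at 0.667 (adjusted 0.249), and r was 0.552 without the 2 farthest mice. So the gastrocnemius relation passed by r and not by rho, and the triceps relation passed by neither.

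No relation between the muscles of a mouse was detected for the myelin genes. Between the gastrocnemius and triceps of the same mouse, r was 0.131 for Mbp (exact permutation p = 0.830) and -0.028 for Pmp22 (exact permutation p = 0.949). For Prnp r was 0.801 (exact permutation p = 0.0187, adjusted 0.0839) and rho 0.619 (adjusted 0.259), and r was 0.391 without the 2 farthest mice. Taken as deviations from the genotype means, r was 0.820 (exact permutation p = 0.0125, adjusted 0.0562) and 0.617 without the 2 farthest mice. Neither form passed after adjustment. No relation of Prnp to the myelin genes within a muscle passed the test: r was -0.079 with Mbp and 0.122 with Pmp22 in gastrocnemius, and -0.495 and -0.066 in triceps, with adjusted exact permutation p of 0.466 to 0.949.

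**Figure D5:**
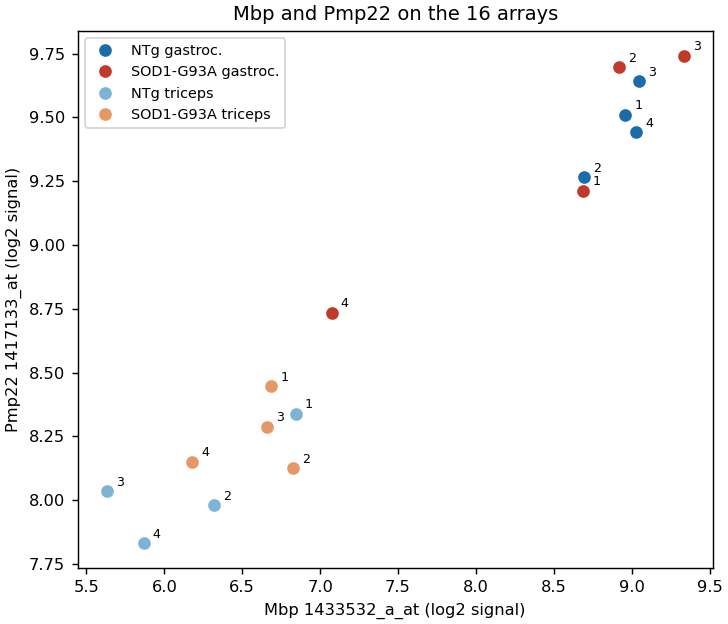
Log2 signal of Pmp22 1417133_at against Mbp 1433532_a_at on the 16 arrays, coloured by group and numbered by replicate. The gastrocnemius arrays lie at the upper right, except SOD1-G93A replicate 4, which lies between them and the triceps arrays.

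The genes whose pattern over the 16 arrays was most like each member were named by Pearson's r with its brightest probe set, among 3033 other genes. The arrays fall into 2 clusters, the muscles, so r here is a description with no p. For Mbp the closest was Pmp22 (r = 0.977), and for Pmp22 it was Mbp. After it, Mbp was followed by Pdlim1 (0.893), Ankrd2 (0.890), Myoz2 (0.880) and Csrp3 (0.868), genes of the sarcomere's Z-disc and muscle cytoskeleton. Pmp22 was followed by Pdlim1 (0.929), Myoz2 (0.917), Atp2a2 (0.900), the slow-fibre calcium pump, and Tpm3 (0.893), the slow-fibre tropomyosin. Prnp had other neighbours: Ube2h (0.909), a ubiquitin-conjugating enzyme, Car3 (0.886), a carbonic anhydrase of slow muscle and fat, Tff1 (0.885), Rhoa (0.882), a small GTPase, and Uqcrc1 (0.872), a subunit of respiratory complex III.

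The remaining genes of myelin and Schwann cells on the lists were few in this table. Of 14 myelin structure genes 3 were present, and 2, Mbp and Pmp22, were called higher in gastrocnemius. The third, Mpp6, a scaffold protein of Schwann cell membranes, differed by -0.32 (SE 0.09) at limma's adjusted p = 0.0572. Of 27 Schwann cell identity genes 8 were present and 5 tested, and 0 passed, with a median difference of 0.24 against -0.0028 over all 3034 genes. These were Prnp, Dag1, Lamc1, Itga6 and Nf2, of which most are also made by other cells. Lamc1, a laminin chain of basement membranes, differed by 0.24 (adjusted p = 0.424) and Dag1, the dystroglycan precursor, by 0.03 (adjusted p = 0.881). Erbb3, the neuregulin receptor of Schwann cells, and L1cam, an adhesion molecule of nonmyelinating Schwann cells and axons, were under the filter, and their unfiltered differences were -0.18 and -0.10. Sox10, Egr2 and S100b were on the Schwann cell identity list but not among the 8 of its genes found by a single gene symbol.

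Genes of myelin lipid synthesis gave 8 of 18 in the table, 2 of them tested, and 0 passed. Hmgcs1, which makes a precursor of cholesterol, differed by 0.12 (adjusted p = 0.680) and Fdft1, which makes squalene, by -0.13 (adjusted p = 0.595) in their brightest probe sets. Of 16 axon and neuron genes 1 was tested, Thy1, a surface glycoprotein of neurons, with 0.08 (SE 0.12, adjusted p = 0.722). Of 10 partners of the prion protein 6 were in the table and 5 tested, and 0 passed. Cav1, the caveolae protein, differed by 0.16 (adjusted p = 0.305), and Rpsa, the ribosomal protein that also serves as a laminin receptor, by 0.06 (adjusted p = 0.765). In the 4 comparisons that include genotype, 0 genes of any of these lists were called.

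Genes of slow fibres were higher in gastrocnemius as well. Of 21 muscle fibre genes 6 were called higher in gastrocnemius. They were the slow-fibre genes Myh7, Myl2, Tnnt1, Tnni1 and Tnnc1 and the fast oxidative myosin Myh2 (1.71, SE 0.27, adjusted p = 0.000899). The slow troponin gene Tnnc1 lay between 9.90 and 11.43 in gastrocnemius and between 4.94 and 8.77 in triceps. The mean level of the fibre list on an array ran from 13.04 to 13.53 in gastrocnemius and from 10.52 to 12.80 in triceps. All 21 had a difference above 0, with a median of 0.55, where 49.2% of all 3034 genes lay above 0. The 3 triceps arrays low in Ckm were the lowest over this list, and without them 16 of 21 lay above 0, the median was 0.07 and the difference in Ckm was 0.07 in place of 0.60. The 6 called genes were called without those arrays too, with Myh2 at 1.41 and Tnnc1 at 4.18.

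Of genes of other cells a few were called, beside 3.69% of all probe sets. Fibroblast and matrix genes had 2 of 9 tested members called higher by their brightest probe sets, Col1a1 and Fmod. Col1a1, a collagen I chain, differed by 1.31 (limma's adjusted p = 0.0290; 0.84 at adjusted p = 0.101 in its other probe set). Fmod, a collagen-binding proteoglycan, differed by 0.66 (adjusted p = 0.00806), and its other tested probe sets by 0.31 to 0.45 (adjusted p = 0.162 to 0.461). Col1a2 was not called by its brightest probe set (0.76, adjusted p = 0.0624) but was by its other (1.12, adjusted p = 0.00659). Without the 3 triceps arrays low in Ckm 0 of the 9 were called. The median over the list was 0.45, 0.38 without those arrays, and its mean level on an array ran from 8.89 to 9.66 in gastrocnemius and from 8.21 to 9.27 in triceps. Of 3 tested smooth muscle genes Myl9, a regulatory myosin light chain, was called at 0.76 (adjusted p = 0.0442). Of 4 tested adipocyte genes Lpl, lipoprotein lipase, which muscle also makes, was called at 0.69 (adjusted p = 0.000197). None of the 2 tested endothelial and 3 tested immune genes passed. The part of fibre type and of these cells in the Mbp and Pmp22 difference was not tested.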

How the data were processed

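Total RNA had been Trizol-extracted from frozen muscle, column-purified and hybridised as biotin-labelled cRNA to Affymetrix arrays, per the labels' protocols. The authors deposited 1 log2 signal per probe set and array, and MAS5 is the only tool in the submitters' processing notes. Base 2 was read from the values (-0.773 to 14.81), and the sources used here state neither the scaling nor how the 7729 probe sets were picked. Precision is limited by the number of arrays. The platform annotation gave 7053 probe sets a single symbol, 330 several and 346 none. Values were used as deposited. A mean per group was fitted with limma 3.58.1 (R 4.3.3) over all 16 arrays (eBayes with an intensity trend), with Benjamini-Hochberg adjustment over all 4637 probe sets tested and calls under 0.05. Genotype averaged over both muscles had the mouse as a random block (consensus correlation 0.185). Replicate numbers were taken as the mouse. Deviations of same-numbered muscles correlated at 0.136 to 0.388, in 8 of 8 cases best with their own number. A shared mouse and any other factor shared by arrays of the same number cannot be told apart by these values. Gene lists used the brightest probe set of each gene. Correlations over mice used exact permutation tests. Alternatives were quantile normalization, other filters, an offset of 16, no trend, blocks and leaving out arrays. The fit was tested on simulated data. Named genes were the members, list genes that passed, list examples of small p, and the 5 genes most like each member. Members, lists and tests were chosen with earlier results of these data known. The genes given for SOD1-G93A gastrocnemius replicate 4, and Erbb3, L1cam, Dag1, Rpsa and Tnnc1, were chosen after their values were seen.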

Additional observations from a re-analysis of the deposited data

Results flagged for a closer look

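In 4 of the 36 sets of 4 arrays (9 probe sets in 4 groups), 1 array lay far from the other 3 relative to the range of its group, where chance gives about 1 in 20. Mbp 1451961_a_at was at 5.33 in SOD1-G93A gastrocnemius replicate 4, and the nearest array of the group was at 7.17. That array was also the lowest for the other probe sets of Mbp and for Pmp22. Mbp 1454651_x_at was at 5.49 in SOD1-G93A triceps replicate 3, with the nearest at 4.23, both dim signals. Prnp 1416130_at was at 7.85 in SOD1-G93A gastrocnemius replicate 2, with the nearest at 8.39, while the other Prnp probe set read 9.58 there, beside 9.58 in replicate 1. Prnp 1448233_at was at 9.86 in NTg gastrocnemius replicate 3, with the nearest at 9.54, and 1416130_at was also highest there, at 8.55.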

How the results depend on the processing

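The muscle calls of Mbp and Pmp22 held in each alternative in which their probe sets were tested, at an adjusted p of at most 0.000113 by limma. Mbp 1419646_a_at and 1456228_x_at fell under the filter at the 60th percentile, and 1456228_x_at also when any gastrocnemius array other than SOD1-G93A replicate 4 was left out. The number called between the muscles, 171, was 108 without the 3 arrays low in Ckm, 436 with the replicate set as a block, 331 with the mouse as a random block, and 95 to 273 with single arrays left out. It was lower by over 1.5 times without NTg gastrocnemius 1 or 2 (103 each), SOD1-G93A gastrocnemius 3 (95) or 4 (113), or SOD1-G93A triceps 1 (112) or 2 (100), and higher by over 1.5 times without NTg triceps 3 (273) or 4 (258). Under the mouse block Prnp passed at its unchanged 0.71 (1416130_at, adjusted p = 0.0251) and 0.29 (1448233_at, 0.0424), as with the set block (0.0211 and 0.0289). The 2 Prnp differences were 0.53 to 0.85 and 0.25 to 0.35 with single arrays left out, and passed without NTg triceps 3 (0.0117 and 0.0451), the second also without SOD1-G93A triceps 3 (0.0469).

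The mouse or the replicate number as a replicate block changed no call between genotypes. No genotype difference passed under any alternative, but several near 0 changed sign. Over both muscles Prnp 1448233_at was -0.0046 after quantile normalization, Mbp 1419646_a_at was -0.016 with 16 added, and without the 3 arrays low in Ckm Mbp 1419646_a_at was -0.16, Mbp 1433532_a_at 0.20 and Prnp 1416130_at -0.013. With single arrays left out, the differences over both muscles ran from -0.11 to 0.18 (Mbp 1419646_a_at), -0.14 to 0.22 (Mbp 1433532_a_at), -0.021 to 0.14 (Pmp22), -0.045 to 0.27 (Prnp 1416130_at) and -0.039 to 0.053 (Prnp 1448233_at). In gastrocnemius they ran from -0.70 to 0.049 (Mbp 1433532_a_at), -0.18 to 0.16 (Mbp 1456228_x_at), -0.25 to 0.086 (Pmp22) and -0.15 to 0.042 (Prnp 1416130_at). In triceps they ran from -0.0041 to 0.64 (Prnp 1416130_at) and -0.12 to 0.072 (Prnp 1448233_at). The difference of the effects ran from -0.023 to 0.50 (Mbp 1456228_x_at) and -0.032 to 0.16 (Prnp 1448233_at). The correlation of Pmp22 between the muscles was 0.0912 in deviations from the genotype means. The causes were not tested. The probe sets of Mbp under the filter have no tested value, and their signal limits what they show.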

Other observations

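Beside Mbp, the genes that lay furthest below the other 7 gastrocnemius arrays in SOD1-G93A replicate 4, picked out after their values were seen, had varied roles. Per1, a core gene of the circadian clock, was at 3.13 there and between 5.81 and 7.81 in the other arrays, a difference of -3.78 from their mean. Jun, an immediate early transcription factor, was at 6.06 against 6.95 to 8.54, and Errfi1, an inducible inhibitor of EGF receptor signalling, at 5.33 against 6.20 to 7.74. Id1, a target of BMP signalling, was at 5.77 against 6.70 to 7.71, and Ccn2, a matricellular protein gene, at 6.89 against 7.09 to 9.40. Pdk4, which restrains glucose oxidation in fasting, was at 9.28 against 9.65 to 11.40. Gadd45g, a stress-response gene, was at 5.95 there, and another gastrocnemius array was lower, at 5.03. Erdr1 was at 6.44 against 7.80 to 8.46, and Dhrs7b at 5.39 against 6.63 to 6.98. With 1 array, none of these values has a test.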
